A study of Mus musculus with 36 samples.

Results

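Mitochondrial ribosomal proteins build the ribosome that works inside the mitochondrion, and their transcripts were followed here in mouse mesenteric lymph nodes. The members were all probe sets listed under a single gene symbol that begins with Mrpl (large subunit) or Mrps (small subunit) and a digit. They came to 127 of 22626 probe sets on array A and 33 of 22511 on array B, or 160 of 45137 in all. They stand for 76 of 18193 genes named by a single symbol, 74 on array A and 27 on array B. The symbols come from the platform annotation, and all 76 genes had a RefSeq entry.

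RNA was measured on a pair of Affymetrix oligonucleotide arrays, called array A and array B, with 3 samples per group on each. The groups were mesenteric lymph nodes of mice given PBS (day 0) or soluble lymphotoxin-beta receptor for 1, 2, 3, 27 or 35 days, and the series title names the reagent sLTbetaR-Ig. This soluble receptor is a decoy that captures lymphotoxin ligands, which signal through the lymphotoxin-beta receptor on lymph node stroma. No saline group later than day 0 and no control fusion protein is described, and strain, sex and age remain unstated here. Treatment time and harvest day therefore cannot be told apart. The labels do not say that the 3 samples of a group were separate mice, so the p-values measure only the spread between these samples, which may be technical.

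The mitochondrial ribosome translates the few proteins encoded by mitochondrial DNA, all of them core subunits of the respiratory chain and ATP synthase. Its RNAs come from mitochondrial DNA, but its proteins are encoded in the nucleus, made in the cytosol and imported. Some of these proteins have counterparts in bacterial ribosomes, and others are found only in mitochondria. In lymph nodes, resting lymphocytes hold few mitochondria, and activated lymphocytes make more of them. Whole nodes were measured, so fewer cells of a type and less RNA per cell cannot be told apart.

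Probe sets were tested where they exceeded the table median (286.7 intensity units on array A, 157.9 on array B) on at least 3 of 18 arrays. This kept 88 of the 127 member probe sets on array A, for 70 of 74 genes, and 25 of 33 on array B, for 21 of 27 genes. On every one of the 18 arrays, 72 and 18 of these probe sets exceeded the median. Mrps25 was the only one of the 76 genes with no tested probe set on either array. The 3 members nearest the limit on array A had third-highest intensities of 298.4 to 305.8 inside it and 242.2 to 282.8 outside it. On array B those inside were at 162.7 to 174.7, and the nearest outside was at 147.6. A gene can have several probe sets, and these are not independent measurements of it.

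Some members fell late on both arrays, and none was called higher on the values as deposited. On array B 3 members were called higher when arrays were scaled to the probe sets that both arrays carry. That scaling raised the median over all tested probe sets there too. The mean of days 27 and 35, called late here, was compared with PBS. On array A 14 of 88 member probe sets (15.9%) were called lower at an adjusted p under 0.05, against 5.76% of all tested probe sets. On array B 5 of 25 (20%) were called lower, against 2.72%. The counts of members called higher were 0 on each array, against 2.58% and 0.384% of all tested probe sets, and an unadjusted p under 0.05, in either direction, was reached by 31 and 8 members, against 23.9% and 19.9%. The median member change on array A was -0.09 (log2), against 0.04 over all 12231 tested probe sets. On array B it was -0.13 against -0.01 over 12516, and it turned to 0.10 against 0.22 when arrays were scaled to the probe sets that both arrays carry. Some members passed the filter only through groups where they are high. Among the members above the table median on all 18 arrays, 11 of 72 were lower late on array A, against 6.37% of all such probe sets, and 5 of 18 on array B, against 3.14%.

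Most of the late change was small, and the number of calls moved with single samples. Of the 88 member probe sets on array A, 71 lay below 0 late, against 38.1% of all tested probe sets. Their late changes ran from -0.74 to 0.19. Without PBS replicate 1, 2 or 3 the count of lower members on array A was 7, 9 or 4 in place of 14. Without day 35 replicate 2 it was 9, and without day 27 replicate 2 it was 23. On array B it was 3 in place of 5 without PBS replicate 2 or PBS replicate 3. The shares of all tested probe sets called in those fits are not set beside these counts. They therefore show only how the number of member calls moved.

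Within the first 3 days no member was called. On array A the limma counts of lower members were 0 at day 1, 0 at day 2 and 0 at day 3, against 0.0164%, 0.0899% and 0.417% of all tested probe sets, and none was called higher, against 0%, 0.0245% and 0.139%. At an unadjusted p under 0.05 these days gave 3, 4 and 7 members, against 3.36%, 5.52% and 10.1% of all. For the mean of days 1, 2 and 3, called early here, the adjusted count of lower members was 0 on array A against 0.114% and 0 on array B against 0.032%, and that of higher ones 0 on each, against 0.0409% and 0%. The unadjusted counts were 2 and 3 members, against 6.5% and 10.7%. The single days on array B gave 0 calls each, against 0.00799%, 0.024% and 0.0719%, and 1, 2 and 5 members at an unadjusted p under 0.05, against 7.19%, 7.05% and 8.28%. Of all tested probe sets on array B, 0%, 0% and 0.00799% were called higher on these days, and no member was.

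Calls were made at days 27 and 35, with the higher count at day 35. On array A 5 members were called lower at day 27, against 2.6% of all tested probe sets, and 15 at day 35, against 5.58%. On array B the counts were 1 at day 27, against 0.328%, and 6 at day 35, against 2.88%. Higher calls among members were 0 at both days, against 0.58% and 1.77% on array A and 0% and 0.703% on array B. Unadjusted p-values under 0.05 were found for 21 and 35 members on array A, against 18.4% and 22.8%, and 7 and 9 on array B, against 11.3% and 19.9%. The 5 calls at day 27 on array A fell on 4 genes, Mrpl52, Mrpl51, Mrpl35 and Mrps14. These counts include members that passed the filter only through groups where they are high. Of the 72 members above the table median on all 18 arrays of kind A, 3 (4.17%) were lower at day 27, near the 2.6% of all tested. At day 35, 12 of the 72 (16.67%) were lower. On array B it was 1 and 6 of 18. The shares of all such probe sets at single days are not given here. Day 35 was not shown to differ from day 27, since limma called 0 members in that contrast on each array, against 0% of all, with 5 members on array A and 2 on array B at an unadjusted p under 0.05, against 6.66% and 2.83%. The day 27 count on array A was 2 without PBS replicate 1 and 1 without PBS replicate 3, day 27 replicate 1 or day 27 replicate 3. It was 12 without day 27 replicate 2. The day 35 count on array A was 9, 8 or 4 without PBS replicate 1, 2 or 3, and 5 without day 35 replicate 2. The single day 27 call on array B was gone without any one of the 3 PBS samples, day 27 replicate 2 or day 27 replicate 3. No share of all tested probe sets is set beside these counts with a sample left out.

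The samples of a group did not move alike. The median of the 88 members on array A, relative to the PBS mean, lay between -0.03 and 0.01 in the PBS samples and between 0.02 and 0.04 at days 1 and 2. At day 3 it was 0.01, 0.05 and -0.15, so replicate 3 stood with the late samples. At day 27 it was -0.10, 0.03 and -0.12, and replicate 2 stood with the early ones. At day 35 it was -0.05, -0.16 and -0.17. On array B the day 3 values were -0.06, -0.08 and -0.15, the day 27 values -0.09, -0.16 and -0.12, and the day 35 values -0.14, -0.12 and 0.00. The labels do not say whether arrays A and B were run on the same RNA.

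**Figure D1:**
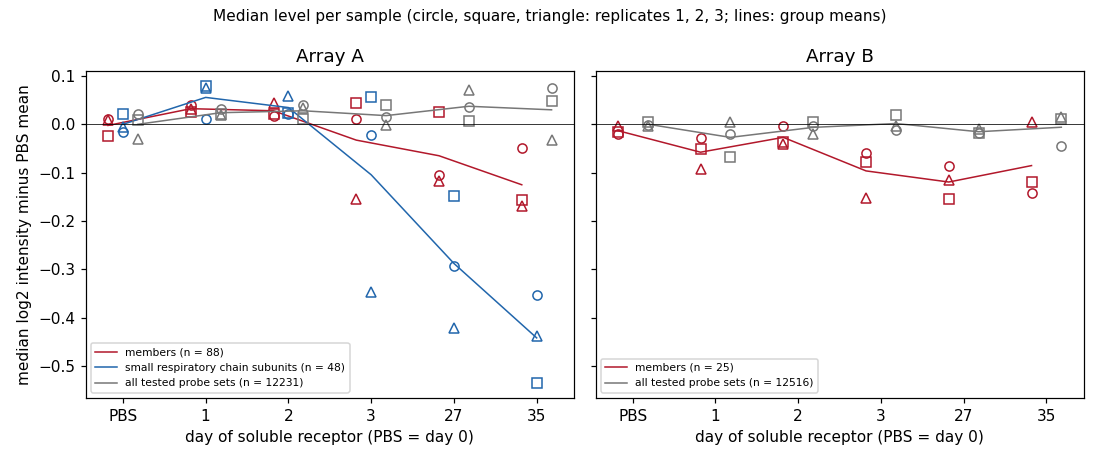
Median level of the members in each sample on array A (88 probe sets) and array B (25), as log2 intensity minus the PBS mean, beside all tested probe sets and, on array A, 48 small respiratory chain subunits. Symbols are replicates and lines are group means; on array A the members at day 35 lie between -0.05 and -0.17 and day 3 replicate 3 at -0.15, and the array B levels turn upward when arrays are scaled to the probe sets that both arrays carry.

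Among large-subunit proteins found only in mitochondria, the largest late fall of a single probe set on array A was in Mrpl52. Counted by the brightest probe set of each gene, the lowest late change of this class was -0.37, that of Mrpl51. Mrpl52 has 3 tested probe sets on array A. The probe set with the suffix _x_at read 331.2, 342.7 and 424.0 in the PBS samples, 243.9, 268.0 and 201.5 at day 27 and 220.6, 177.0 and 205.9 at day 35. In the 9 early samples its lowest, median and highest values were 217.9, 351.7 and 406.8, the lowest being day 3 replicate 3. All 6 late samples lay below all 3 PBS samples, and they overlapped the early range. The late change was -0.74 ± 0.12 (SE). All 6 late values lay below the table median, so this probe set passed the filter through PBS and early samples, where it is high, and its change is given as a description with no p.

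A further Mrpl52 probe set, with the suffix _at, read 487.7, 487.6 and 537.6 in PBS, 327.0, 387.6 and 318.5 at day 27 and 370.9, 310.5 and 286.6 at day 35. Its late change was -0.60 ± 0.11 (adjusted p = 0.00254), again with no overlap between late and PBS samples. The brightest of the 3, with the suffix _a_at, changed by -0.23 ± 0.11 (adjusted p = 0.219), with 1251.8, 1263.6 and 1238.4 in PBS and 914.1 to 1324.6 late. The 3 probe sets of this gene therefore differ in their calls. An _x_at suffix marks probes that may also bind other transcripts.

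Mrpl51, another protein of the large subunit without a bacterial counterpart, kept its late call under all 23 alternatives tried. The probe set read 663.2, 647.9 and 611.6 in PBS, 466.3, 523.4 and 506.2 at day 27 and 522.6, 474.3 and 479.0 at day 35. Its 9 early samples ran from 534.8 to 686.0 with a median of 642.5. The highest late sample, 523.4, lay below every one of the other 12 samples. The late change was -0.37 ± 0.07 (adjusted p = 0.00198).

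Mrpl43 and Mrpl42 are of the same class. Mrpl43 read 540.2, 579.9 and 583.6 in PBS, 483.8, 490.0 and 493.5 at day 27 and 503.0, 464.1 and 466.2 at day 35. Its late samples also lay below all 12 others, and the change was -0.23 ± 0.06 (adjusted p = 0.0138). Mrpl42 fell by 0.30 ± 0.08 on the log2 scale (adjusted p = 0.0322), from 880.7 ± 47.5 (SD, n = 3) in PBS to 671.9 ± 58.5 (n = 3) at day 35. Day 27 replicate 2 of Mrpl42, at 857.6, lay within the PBS range. The late call of Mrpl43 ended without PBS replicate 2 or 3 (adjusted p up to 0.087), and that of Mrpl42 without any PBS sample, day 27 replicate 1 or 3, or day 35 replicate 2 (up to 0.174). Mrpl58, which releases peptides from stalled ribosomes, was called at day 35 (-0.32 ± 0.07, adjusted p = 0.0136) and not late as a whole (-0.19 ± 0.06, adjusted p = 0.0755). It read 497.6, 533.0 and 518.0 in PBS, 502.8, 524.9 and 457.4 at day 27 and 451.1, 393.7 and 396.9 at day 35, and the day 35 call ended without PBS replicate 2 or 3 or day 35 replicate 2 (adjusted p up to 0.0813).

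Among large-subunit proteins with bacterial counterparts, the called members were Mrpl27, Mrpl32, Mrpl34, Mrpl35 and Mrpl36. Mrpl35 read 358.2 to 443.4 late, below the whole PBS group at 510.7 ± 30.5 (SD, n = 3), with a change of -0.38 ± 0.09 (adjusted p = 0.0108). Its early samples, from 391.0 to 512.1, overlapped both. Mrpl36 read 703.0, 652.4 and 718.1 in PBS, 551.8, 646.8 and 518.8 at day 27 and 535.7, 547.6 and 541.6 at day 35. The late change of Mrpl36 was -0.31 ± 0.07 (adjusted p = 0.00938), and at day 3 it already stood at 585.2, 629.5 and 531.8, below all PBS samples, without a call (-0.25 ± 0.08, adjusted p = 0.257). The late call of Mrpl35 ended without PBS replicate 1 or 3 (adjusted p up to 0.0578), and that of Mrpl36 without PBS replicate 3 (0.0668).

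Mrpl27, a counterpart of a bacterial protein near the peptidyl transferase centre, read 685.1, 600.3 and 725.4 in PBS. At day 27 it read 599.7, 629.9 and 483.0, and at day 35 527.9, 450.6 and 500.8. Only replicate 2 of day 27 overlapped the PBS range, and the late change was -0.34 ± 0.09 (adjusted p = 0.0214). Mrpl34 fell by 0.30 ± 0.08 on the log2 scale (adjusted p = 0.0229), with 493.6 in day 27 replicate 2 and 372.4 to 422.0 in the other 5 late samples, against 488.7 to 517.4 in PBS. The call of Mrpl27 ended without PBS replicate 1 or 3 or day 35 replicate 2 (adjusted p up to 0.149), and that of Mrpl34 without any PBS sample or day 35 replicate 2 (up to 0.11). Mrpl32 fell by 0.21 ± 0.06 on the log2 scale and was named after its values were seen. RefSeq lists pseudogenes named after Mrpl23, Mrpl27, Mrpl48 and Mrps36, 6 in all, and signal from such copies was not separated.

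In the small subunit, Mrps14 had the smallest adjusted p of the members late against PBS. Mrps14 is a counterpart of a bacterial protein in the head of the small subunit. It read 894.2, 856.6 and 947.3 in PBS, 624.7, 751.4 and 544.0 at day 27 and 604.9, 540.9 and 591.4 at day 35. Early samples ran from 674.7, in day 3 replicate 3, to 988.1. The late change was -0.57 ± 0.09 (adjusted p = 0.000718), with every late sample below every PBS sample.

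Mrps28 and Mrps24 were the other small-subunit calls. Mrps28 read 286.9, 252.7 and 307.9 in PBS and 192.3 to 244.8 late, below all 12 other samples, and changed by -0.36 ± 0.08. Its late values lie below the table median, so it too passed the filter through PBS and early samples, and these values are a description with no p. Mrps24 read 728.7, 739.5 and 722.5 in PBS and 570.9 to 670.1 late, and changed by -0.28 ± 0.07 (adjusted p = 0.015). Mrps24 was measured by a probe set with the suffix _s_at, which marks probes shared by several transcripts. The call of Mrps28 ended without PBS replicate 1 or 3, and that of Mrps24 without PBS replicate 2 or 3 (adjusted p up to 0.0671). Mrps12, a counterpart of the bacterial protein at the decoding site, did not pass the test late against PBS (-0.17 ± 0.07, adjusted p = 0.128), with 370.1, 371.7 and 338.9 at day 35 against 415.5, 400.2 and 394.8 in PBS.

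**Figure D2:**
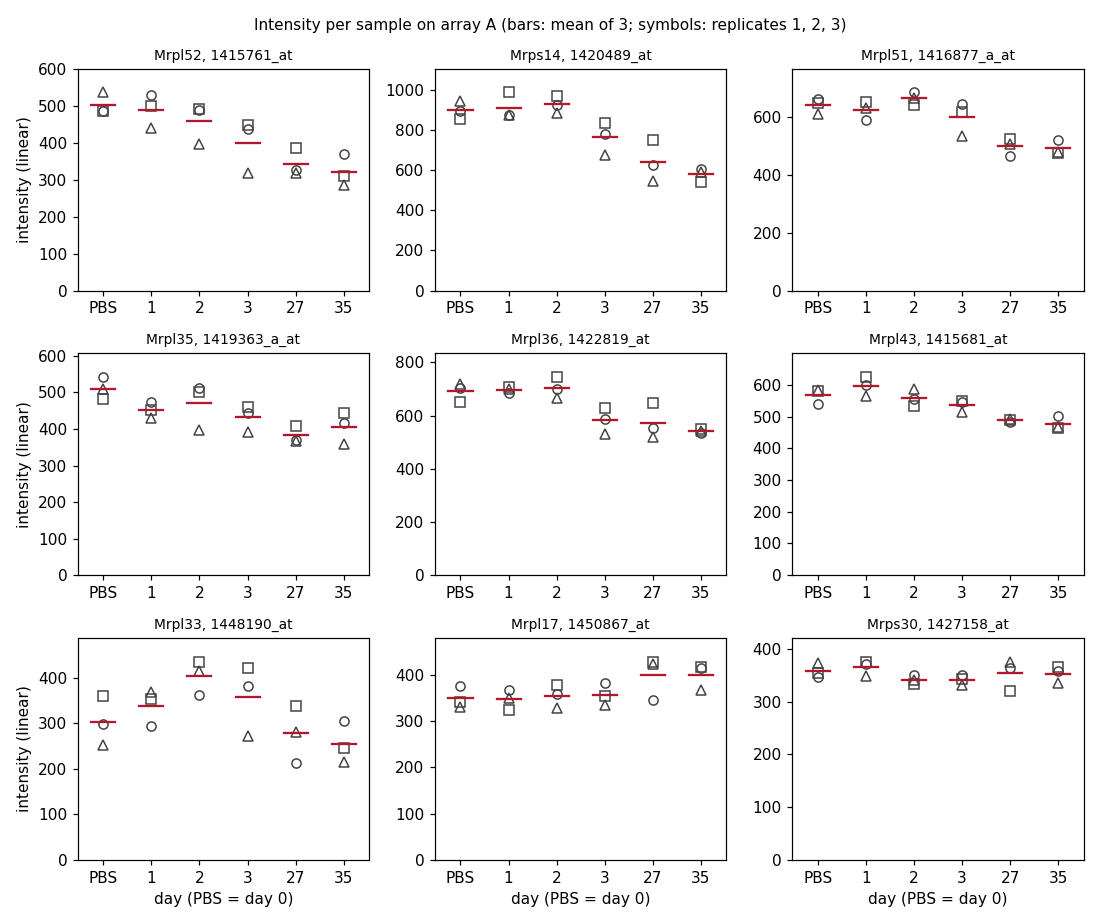
Intensity in each of the 18 samples on array A for 9 member probe sets, on linear axes, with symbols for replicates and bars for the mean of 3. Mrpl51 and Mrpl43 show 6 late samples below all others, Mrps14 and Mrpl52 show day 3 replicate 3 near the late samples, and Mrps30 was not called (-0.02).

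Mrps36 carries a name of this family, but its protein is now known as a subunit of the alpha-ketoglutarate dehydrogenase complex and not of the ribosome. It read 677.9, 638.1 and 745.3 in PBS, 585.0, 624.2 and 510.1 at day 27 and 609.1, 568.9 and 485.8 at day 35. The late change was -0.29 ± 0.08 (adjusted p = 0.0341), and the call ended without PBS replicate 1 or 3, day 27 replicate 3, or day 35 replicate 2 or 3 (adjusted p up to 0.209). Without it the late calls on array A come to 13 probe sets for 12 genes.

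Counted by gene, through the brightest of its tested probe sets, 12 of 70 genes were lower late on array A and the median was -0.12. Over all tested probe sets there, 5.76% were lower and the median was 0.04. The calls were 5 of 28 genes of the large subunit with bacterial counterparts and 3 of 19 found only in mitochondria. In the small subunit they were 3 of 15 and 0 of 7, with medians of -0.12 and -0.04, and 2 of those 7 had an unadjusted p under 0.05. Mrps36 gave the remaining call. By subunit the shares were 8 of 47 and 3 of 22, and whether the classes differ was not tested. The 0 of 7 lies near the 5.76% over all tested probe sets. Across the 88 probe sets on array A, which share the same samples, Spearman's rho between mean intensity and late change was -0.04. Across the 25 on array B it was -0.392, with 5 of the 13 brighter members lower late and 0 of the 12 dimmer. In the brightest 10% of tested probe sets on array B, 2 of 3 members were lower, against 7.3% of all. In the next brightest 10% it was 2 of 3, against 4.2%. The 2.72% over all tested probe sets on array B is therefore not matched to these calls by brightness.

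**Figure D3:**
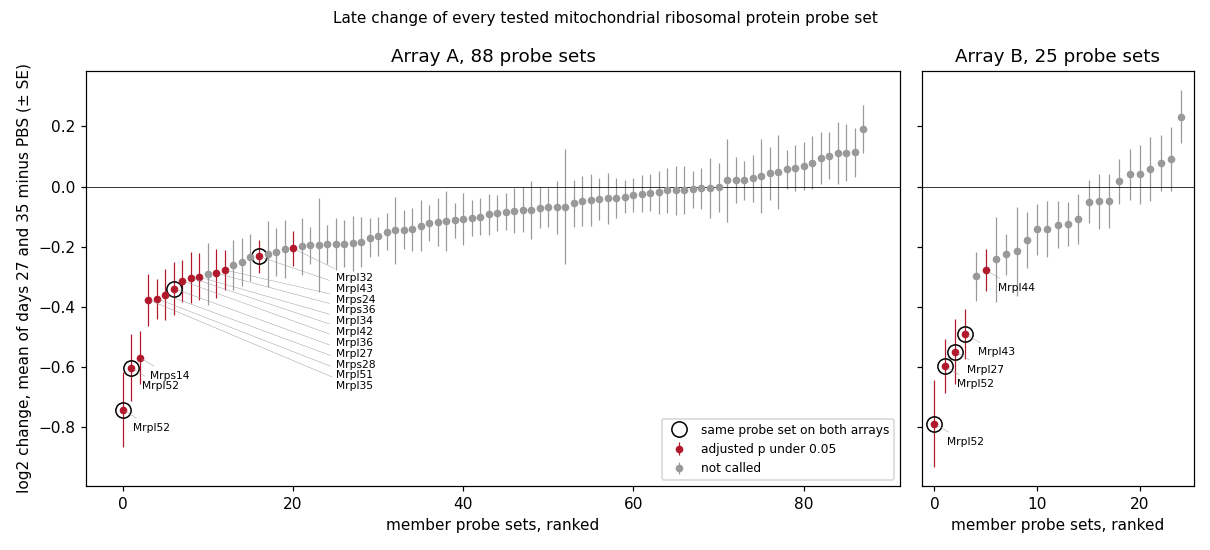
Late change (mean of days 27 and 35 minus PBS, log2, ± SE) of every tested member probe set on array A (88) and array B (25), ranked. Red marks an adjusted p under 0.05 and circles the 4 probe sets on both arrays; array A values run from -0.74 to 0.19, on array B 4 of the 5 red points are circled, and with scaling to the probe sets on both arrays the array B median moves from -0.13 to 0.10.

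Several members were not called. Mrps30, a large-subunit protein despite its name, read 346.0, 353.5 and 373.5 in PBS and 320.8 to 375.3 late, a change of -0.02 ± 0.06 (adjusted p = 0.876). Mrpl3, which lies close to the catalytic centre, changed by -0.01 ± 0.07 (adjusted p = 0.969), with 497.4 to 566.6 in PBS and 492.9 to 558.8 late. Mrps18a, also in the large subunit, changed by -0.15 ± 0.06 (adjusted p = 0.151). Mrpl12, a stalk protein, read 327.9, 342.5 and 350.1 in PBS and 258.1 to 323.1 late, so that the groups did not overlap, yet its change of -0.21 ± 0.10 was not called (adjusted p = 0.2). The highest late change on array A was that of the Mrpl17 probe set with the suffix _at, 0.19 ± 0.08 (adjusted p = 0.149), while the other Mrpl17 probe set changed by -0.12 ± 0.08 (adjusted p = 0.375).

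Counted by sample, 16 of 88 members on array A had all 6 late samples below all 3 PBS samples, or 18.2%, against 7.51% of all tested probe sets. On array B it was 6 of 25, or 24%, against 7.44%. On array A 4 members had every late sample below the 12 PBS and early samples, or 4.55%, against 1.28%, and on array B 0 did, against 0.192%. Mrps28, which passed the filter through PBS and early samples, is in both array A counts, and the Mrpl52 _x_at probe set is among the 16. The counts by sample were not repeated for members above the table median on all 18 arrays, so they are a description.

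Late samples were also compared with early ones, a contrast that shares the late samples with the one above. On array A 32 of 88 members (36.4%) were called lower, against 10.4% of all tested probe sets, and 0 were called higher, against 4.98%. On array B 4 of 25 were lower, against 1.42%, and 0 higher, against 0.24%. An unadjusted p under 0.05 was reached by 51 and 8 members, against 29.4% and 13.9%. The median member change was -0.12 on array A, against 0.02 for all, and -0.06 on array B, against 0.00, the latter turning to 0.09 against 0.14 when scaled to the probe sets on both arrays. Among members above the table median on all 18 arrays, 25 of 72 were lower on array A, against 11.4% of all such probe sets, and 4 of 18 on array B, against 1.71%. Without day 27 replicate 3 the count of 32 on array A was 21, with no share of all tested probe sets set beside it.

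The 32 probe sets stand for 31 genes. For Mrpl9, Mrpl15, Mrpl17, Mrpl28 and Mrpl41 a single probe set was called, while other tested probe sets of the gene were not. The called probe set of Mrpl28 changed by -0.17 (adjusted p = 0.00958) and that of Mrpl41 by -0.19 (adjusted p = 0.0334). The Mrpl41 call held under 18 of 29 alternatives. Mrpl33, a small protein with a bacterial counterpart, read 298.6, 360.0 and 252.1 in PBS, from 272.3 to 435.2 with a median of 369.8 early, and from 213.4 to 338.6 late. Its late change was -0.47 ± 0.12 against early samples (adjusted p = 0.0102) and -0.19 ± 0.16 against PBS (adjusted p = 0.471), with an early change of 0.27 ± 0.15 (adjusted p = 0.826). Mrpl18 exceeded the table median on 5 arrays only, all of them early samples, so its change of -0.33 ± 0.06 against early samples is a description with no p. Its change against PBS was -0.25 ± 0.08 (adjusted p = 0.0622). Mrpl23, whose bacterial counterpart lines the exit of the peptide tunnel, changed by -0.29 ± 0.06 (adjusted p = 0.00364) and -0.26 ± 0.08 (adjusted p = 0.0591). Mrps16 changed by -0.26 ± 0.06 (adjusted p = 0.00464) and -0.23 ± 0.08 (adjusted p = 0.073).

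Whether the arrays fell alike rests on few shared measurements. Of the 5 probe sets called late on array B, 4 are probe sets that array A carries too, for Mrpl52, Mrpl27 and Mrpl43. The Mrpl52 probe set with the suffix _at read 612.2, 606.9 and 653.9 in PBS on array B and 295.9 to 481.7 late, a change of -0.79 ± 0.14 (adjusted p = 0.00544) against -0.60 on array A. That with the suffix _x_at changed by -0.60 ± 0.09 (adjusted p = 0.0012), against -0.74 on array A. Mrpl27 read 672.3, 674.1 and 700.4 in PBS and 422.6, 410.6 and 411.2 at day 35 on array B, a late change of -0.55 ± 0.11 (adjusted p = 0.00916) against -0.34. Mrpl43 changed by -0.49 ± 0.08 (adjusted p = 0.0028) against -0.23. On array B the call of Mrpl27 ended without PBS replicate 2 or 3 (adjusted p up to 0.0604), and the other 3 of these calls held with any 1 sample left out. Scaled to the probe sets on both arrays, the late changes on array B were smaller, at -0.57 and -0.38 for the Mrpl52 probe sets, -0.33 for Mrpl27 and -0.27 for Mrpl43, and all 4 were still called.

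Of the 21 tested member probe sets that only array B carries, 1 was lower late (4.76%), near the 2.72% of all tested probe sets. At day 35, 2 were lower (9.52%), against 2.88% of all. The one lower late is a probe set of Mrpl44, a protein with a fold like that of a ribonuclease. On array B it read 319.1, 299.2 and 281.6 in PBS, 261.7, 255.9 and 242.1 at day 27 and 234.4, 257.2 and 232.8 at day 35, a late change of -0.28 ± 0.07 (adjusted p = 0.0353). That call ended with 7 of the 9 PBS and late samples left out in turn (adjusted p up to 0.185), the exceptions being day 27 replicate 1 and day 35 replicate 2. For Mrpl44 on array B the call also ended with quantile scaling (adjusted p = 0.0571) and with scaling to the probe sets on both arrays, where the change was -0.06 (adjusted p = 0.562). The pair of Mrpl44 probe sets on array A changed by 0.08 ± 0.09 (adjusted p = 0.615) and 0.11 ± 0.10 (adjusted p = 0.494). Mrps6, in the small subunit, was called on array B at day 35 (-0.46 ± 0.09, adjusted p = 0.0115), with 555.5, 492.9 and 575.2 against 739.4, 770.8 and 712.4 in PBS, while its late change on array A was -0.08. The Mrps6 call ended without PBS replicate 2 or day 35 replicate 2 (adjusted p up to 0.0728). Mrps6 on array B was also not called at day 35 with quantile scaling (-0.33, adjusted p = 0.0742), cyclic loess (-0.35, adjusted p = 0.0786) or scaling to the probe sets on both arrays (-0.17, adjusted p = 0.223).

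Both arrays tested 16 member genes, and 13 of them were measured by different probe sets. Among these, 1 was called lower late on array A (Mrpl35), 1 on array B (Mrpl44) and 0 on both, and 5 had all their probe sets below 0 on both arrays. Over all tested probe sets, 5.76% were lower late on array A and 2.72% on array B, and 38.1% and 52.7% lay below 0. The 1 of 13 on each array is near those shares of lower calls. A share of all genes below 0 on both arrays is not given here. Mrpl35 on array B changed by -0.22 ± 0.15 (adjusted p = 0.424) near the filter limit. Mrpl54 changed by -0.22 on array A and by 0.23 ± 0.09 (adjusted p = 0.162) on array B. Mrpl15, Mrpl17, Mrpl21, Mrpl3, Mrpl47, Mrpl9, Mrps15, Mrps26 and Mrps5 were called on neither array, with changes from -0.24 to 0.19.

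**Figure D4:**
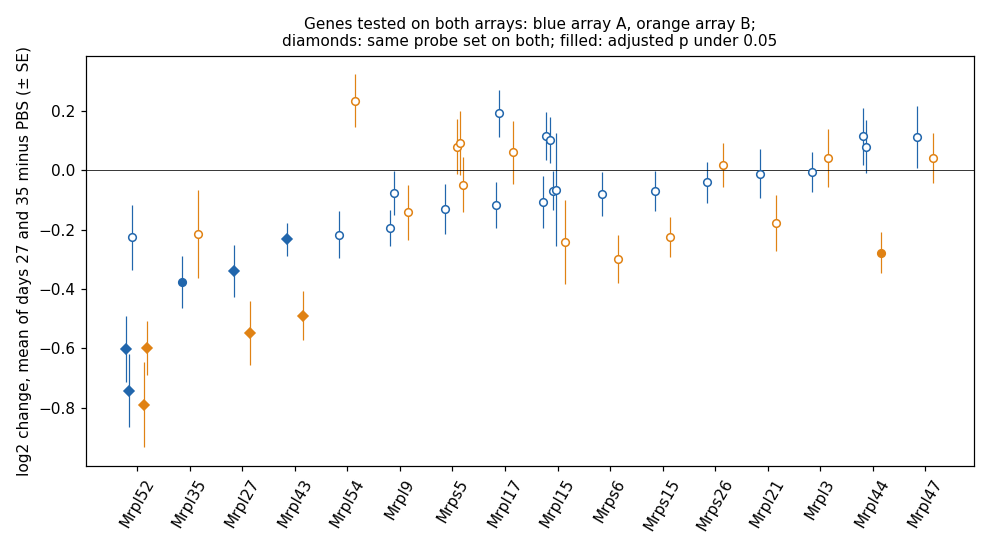
Late change (mean of days 27 and 35 minus PBS, log2, ± SE) of the 16 genes tested on both arrays, array A in blue and array B in orange, with diamonds for probe sets on both arrays and filled symbols for those that passed the test. Mrpl52, Mrpl27 and Mrpl43 fell on both by the same probe sets, while Mrpl44 and Mrpl54 lie on opposite sides of 0, and the array B median turns upward when scaled to the probe sets on both arrays.

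The probe sets on both arrays bear on the scale of array B. Both arrays carry 100 probe sets in common besides controls. Late on array B, the 96 of these that were tested and are not members had a median change of -0.19, with 21 lower (21.9%), and on array A the 90 tested had a median of 0.01, with 5 lower. On array B the brightest 10% of tested probe sets had a late median of -0.09 and the dimmest 10% 0.03. Scaled to the common probe sets, the late median over all probe sets on array B moved from -0.01 to 0.22 and that of the members from -0.13 to 0.10, while members less all stayed at -0.12 in both cases. Under that scaling 4 members on array B were called lower late and 3 higher. The shares of all tested probe sets called under it are not given here. The 3 higher calls are therefore not read as a trait of the members. On array A members less all was between -0.13 and -0.14 late under each of the 5 scalings.

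Promoters are shown for the genes called late on both arrays (Mrpl52, Mrpl43 and Mrpl27), for the other genes whose late call on array A held under at least 22 alternatives (Mrps14, Mrpl51 and Mrpl36), and for Mrpl17, which was not called late against PBS, because nuclear genes of mitochondrial proteins are known to be driven by nuclear respiratory factor 1, ETS-family factors such as GABP, and YY1. Each line gives the 250 bases before the transcript start, 5′ to 3′ on the gene's strand, from RefSeq with assembly GRCm38.p6. Capitals mark the letters GCGCATGCG (nuclear respiratory factor 1), CCGGAAG (ETS) and AAGATGGCG (YY1) or their reverse complements.
Mrpl52 (chr14:54426659-54426908, plus strand): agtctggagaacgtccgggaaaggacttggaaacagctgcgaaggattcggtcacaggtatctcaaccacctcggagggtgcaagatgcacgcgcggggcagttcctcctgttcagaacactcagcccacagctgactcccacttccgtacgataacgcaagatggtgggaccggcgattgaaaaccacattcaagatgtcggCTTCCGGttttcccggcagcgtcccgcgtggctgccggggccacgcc
Mrpl43 (chr19:45006443-45006692, minus strand): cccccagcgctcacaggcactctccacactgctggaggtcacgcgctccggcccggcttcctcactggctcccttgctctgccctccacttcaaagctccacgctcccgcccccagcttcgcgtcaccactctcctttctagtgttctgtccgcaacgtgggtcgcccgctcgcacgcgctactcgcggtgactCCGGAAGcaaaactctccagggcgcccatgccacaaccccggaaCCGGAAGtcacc
Mrpl27 (chr11:94653541-94653790, plus strand): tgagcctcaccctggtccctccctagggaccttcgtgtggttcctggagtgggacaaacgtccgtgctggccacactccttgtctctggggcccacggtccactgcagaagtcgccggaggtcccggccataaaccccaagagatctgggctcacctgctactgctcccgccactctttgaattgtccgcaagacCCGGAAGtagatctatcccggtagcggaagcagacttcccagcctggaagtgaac
Mrps14 (chr1:160194965-160195214, plus strand): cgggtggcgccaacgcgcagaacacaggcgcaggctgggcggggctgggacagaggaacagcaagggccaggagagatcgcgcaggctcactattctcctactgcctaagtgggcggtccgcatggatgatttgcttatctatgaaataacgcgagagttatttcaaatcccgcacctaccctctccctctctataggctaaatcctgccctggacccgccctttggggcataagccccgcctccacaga
Mrpl51 (chr6:125191950-125192199, plus strand): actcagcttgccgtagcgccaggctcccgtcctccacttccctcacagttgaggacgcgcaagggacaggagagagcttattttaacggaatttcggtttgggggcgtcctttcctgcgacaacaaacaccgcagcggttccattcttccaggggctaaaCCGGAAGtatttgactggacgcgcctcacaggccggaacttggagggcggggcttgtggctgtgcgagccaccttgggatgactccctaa
Mrpl36 (chr13:73330759-73331008, plus strand): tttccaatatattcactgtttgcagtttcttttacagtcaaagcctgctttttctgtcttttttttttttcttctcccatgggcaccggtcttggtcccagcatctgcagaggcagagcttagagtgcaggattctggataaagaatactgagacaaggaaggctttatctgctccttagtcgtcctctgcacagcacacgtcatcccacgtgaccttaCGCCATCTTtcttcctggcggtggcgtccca
Mrpl17 (chr7:105811088-105811337, minus strand): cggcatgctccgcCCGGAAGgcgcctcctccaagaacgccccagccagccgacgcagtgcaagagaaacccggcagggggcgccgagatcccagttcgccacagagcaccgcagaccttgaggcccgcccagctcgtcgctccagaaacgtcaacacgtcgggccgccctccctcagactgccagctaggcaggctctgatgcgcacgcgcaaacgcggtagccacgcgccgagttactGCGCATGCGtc
Mrpl52, Mrpl43, Mrpl27 and Mrpl51 hold the ETS letters, Mrps14 none of the motifs, Mrpl36 the YY1 letters, and Mrpl17 both the nuclear respiratory factor and the ETS letters. A match is a description of the sequence and not a bound site.

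Over 300 bases, from 250 before to 50 after the start, at least one of these motifs on either strand lay in the promoters of 35 of 66 tested member genes with a sequence (53%), against 12.7% of 27025 genes. The ETS letters were in 25 (37.9% against 9.9%), those of YY1 in 8 (12.1% against 1.6%) and those of nuclear respiratory factor 1 in 7 (10.6% against 2%). Of the 13 member genes lower late on either array with a sequence, 10 held one, and of the other 53, 25 did. Matches can overlap, since CCGGAAG ends in the letters with which AAGATGGCG begins, and GCGCATGCG can overlap its own reverse complement. No match says only that these letters are not in the window.

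Other genes of mitochondrial translation gave few calls. On array A, late against PBS, 1 of 4 ribosomal proteins of the mitochondrion with other names was lower, Chchd1 at -0.38 ± 0.09 (adjusted p = 0.0169), against 5.76% lower and a median of 0.04 over all tested probe sets. The limma counts of lower genes were 0 of 5 translation factors, 0 of 8 mitochondrial aminoacyl-tRNA enzymes and 0 of 13 ribosome assembly factors, with medians of 0.07, 0.07 and 0.08, and 1, 0 and 1 genes at an unadjusted p under 0.05. On array B the late medians of these 3 lists lay on the other side of 0, at -0.07, -0.07 and -0.12, against -0.01 over all tested probe sets there. Lower late on array B were 0 of 7, 0 of 7 and 1 of 7, against 2.72% of all, with 1, 2 and 3 genes at an unadjusted p under 0.05. At day 35 on array B 2 of the 7 assembly factors were lower, against 2.88% of all tested probe sets. The assembly factor called late on array B was Malsu1, which keeps the large subunit from joining too early, at -0.52 ± 0.08 (adjusted p = 0.00215). Of 10 factors of mitochondrial transcription and RNA, 2 were lower on array A, Slirp at -0.83 ± 0.14 (adjusted p = 0.00146) and Hsd17b10 at -0.24 ± 0.07 (adjusted p = 0.0312). Slirp binds and stabilises mitochondrial mRNA. Of 7 nuclear regulators, among them Nrf1, Gabpa and Yy1, 0 were called, with 1 at an unadjusted p under 0.05 and a median of 0.13.

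Small subunits of the respiratory chain, the complexes that the products of this ribosome join, had the lowest median of these lists on array A. Late on array A 35 of 48 were called lower (median -0.36), as were 14 of 38 cytosolic ribosomal proteins (median -0.14). On array B, where 5 of the small respiratory subunits were tested, 2 were lower and the late median was 0.13. Over all tested probe sets on array B, 2.72% were lower and the median was -0.01. Large mitochondrial enzymes, such as those of the citric acid cycle, gave 1 of 40, Etfa, with a median of -0.03 on array A. At day 3 the median of the small respiratory subunits was -0.35 in replicate 3 and -0.02 and 0.06 in replicates 1 and 2, the same sample that stood apart for the members. These lists were chosen with earlier results known, and the differences between lists were not tested.

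**Figure D5:**
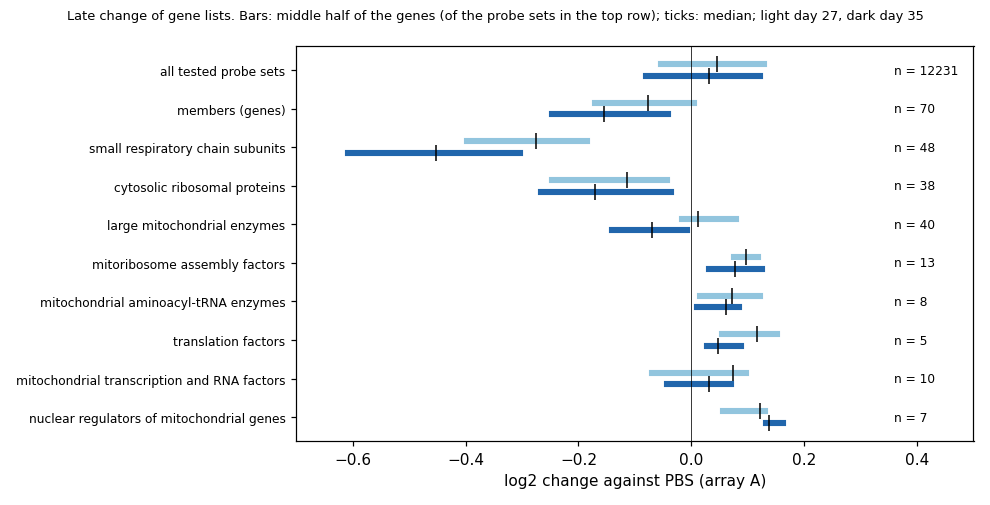
Change against PBS on array A (log2) at day 27 (light) and day 35 (dark) for the members, with 1 probe set per gene, and for the other lists. Bars span the interquartile range and ticks mark medians, and small respiratory chain subunits lie lowest, with a day 35 median of -0.45, and the members have a day 35 median of -0.15 against 0.03 for all tested probe sets.

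The 3′ minus 5′ difference of the beta-actin control probe sets (log2), a sign of RNA and labelling quality, moved with the late samples. On array A it was -0.03 to 0.06 in PBS, 0.08 to 0.17 at day 27 and 0.15 to 0.19 at day 35, and on array B 0.05 to 0.08, 0.18 to 0.25 and 0.25 to 0.30. The same difference for Gapdh was -0.01 to 0.02 in PBS, -0.04 to 0.11 early and -0.03 to 0.11 late on array A. For Gapdh on array B it was 0.062 to 0.146 in PBS, 0.003 to 0.244 early and 0.008 to 0.171 late. Of the cell type markers, all 4 B cell, 5 T cell, 5 stroma and vessel and 4 fat cell markers measured were above the table median in PBS, and 0 of 4 intestinal ones. The mean of the B cell markers was 11.04 to 11.11 (log2 intensity) in PBS, 10.86 to 11.18 early, 10.84 to 10.89 at day 27 and 10.89 to 11 at day 35. That of the stroma and vessel markers was 10.49 to 10.62 in PBS, 9.88 to 10.43 early and 9.91 to 10.35 late. The plasma cell markers were at 11.66 to 11.9 in PBS, 11.72 to 12.19 early, 12.01 to 12.22 at day 27 and 11.91 to 12.15 at day 35, so that late and PBS samples did not overlap. The fat cell markers were at 11.07 to 11.24 in PBS, 10.94 to 11.25 early and 10.58 to 11.11 late. The part of these shifts in the fall of the members was not tested.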

How the data were processed

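Transcripts of mesenteric lymph nodes were measured on 36 arrays, 18 of each kind, in 6 groups of 3 samples. The deposited tables hold a linear intensity for each probe set on each array. How the authors made these (software, background, scaling) remains not given in the sources used here. Medians of single arrays were 272.8 to 299.5 (array A) and 149.8 to 165.2 (array B), so no further scaling was applied. Intensities below the 20th percentile of the table (122.7 and 76.6) were raised to it and the deposited values were then taken to log2. The 64 control probe sets of each table stayed out. Of the probe sets, 20380 and 14661 had 1 symbol, 691 and 245 several, and 1555 and 7605 none, and only those with 1 symbol name a gene.

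R 4.3.3 and its package limma 3.58.1 (lmFit and eBayes, prior variance following intensity) were used on each table, the 6 groups sharing one fit. The tests are two-sided, adjusted by Benjamini-Hochberg over all tested probe sets of the table and contrast, and called at 0.05. Values after ± are the fit's standard errors for log2 changes and SDs where marked. The script was tested on simulated arrays. The number of arrays limits the precision. The members and lists were chosen with earlier results of these data known. Named genes are, for each late contrast, the largest called falls (up to 12 on array A, 6 on array B), 7 genes named whatever their values, all genes tested on both arrays, those whose probe sets differ in call, and up to 4 called genes per other list. Further names were chosen after their values were seen.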

Additional observations from a re-analysis of the deposited data

How the results depend on the processing

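Alternatives covered scaling, floor, filter, variance model, array weights, replicate number, probe set choice, the samples fitted and each sample left out. Scaling to probe sets on both arrays and cyclic loess were chosen after seeing the data. Of 276 counts of lower members under these, 230 stayed within 1.5 times the main count and 46 did not. Of 276 medians, 266 moved by less than the spread between samples. The counts that follow are of members alone, and the share of all tested probe sets called under each setting is not set beside them. They show how member calls move with the processing, and not whether members moved apart from all probe sets. Late against PBS on array A, 14 calls became 24 with common median scaling, 22 with cyclic loess, 34 with array weights, 28 without the 3 samples of low weight (day 3 replicate 3, day 27 replicate 2 and day 35 replicate 3) and 7 with only the groups compared, and 4 to 23 with 1 sample left out. Late against early, 32 became 50 with array weights and 21 to 41 with 1 sample left out. At day 27 on array A, 5 became 11 (common median), 3 (no filter), 23 (array weights), 3 (brightest probe set), 22 (without the 3 samples) and 1 (only the groups compared), and 1 to 12 with 1 sample left out. At day 35 on array A, 15 became 32 with array weights and 4 to 16 with 1 sample left out. Array weights also gave 1 early call on each array and 3 calls for day 35 against day 27 on array A. On array B the 1 call at day 27 became 0 with quantile scaling, no filter, scaling to the shared probe sets, cyclic loess or only the groups compared, 4 with array weights, whose estimate did not converge there, 2 without the 3 samples, and 0 to 1 with 1 sample left out. The late count of 5 became 3 to 6 with 1 sample left out. Medians on array B, scaled to the shared probe sets, were 0.05 at day 27, 0.16 at day 35, 0.15 for day 35 against day 27, 0.03 early, 0.10 late and 0.089 late against early. Without a filter they were -0.028 at day 35 and -0.05 late. The day 27 median on array B was -0.155 to -0.079 with 1 sample left out. On array A the day 35 against day 27 median was 0.009 without the 3 samples. On array A the late calls of Mrpl51, Mrps14 and the Mrpl52 _at probe set held under all alternatives that kept them in the test. So did those of Mrpl43 and both Mrpl52 probe sets on array B. The Mrpl52 _x_at probe set is left out for array A, where it passed the filter through PBS and early samples. Also on array A, Mrpl36 lost its call without PBS replicate 3. Mrpl42 lost its call under 9 of 23 alternatives. The replicate numbers were not taken to pair the samples, since not every correlation of same-numbered deviations exceeded 0.1: the lowest was -0.485 on array A and -0.415 on array B, although on array B the medians for numbers 1, 2 and 3 were 0.381, -0.13 and 0.431. With the replicate number as a block, lower calls late were 14 on array A and 7 on array B, and at day 27 on array B 3.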
